A study of Mus musculus with 6 samples.

Results

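The 10 genes described here are the primary granule genes of granulocyte-monocyte progenitors together with their closest lineage companions, and they were followed through bulk RNA sequencing of a mouse acute myeloid leukemia. They were named as textbook markers of these cells, and all 10 were present among the 23608 rows of the deposited count table. Mpo, Elane, Prtn3, Ctsg and Ms4a3 represent the granule program itself, Cebpe, Csf3r and Csf1r the transcription factor and receptors that go with it, and Prg2 and Epx the granules of eosinophils.

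Primary (azurophil) granules are the first granules that a myeloid precursor makes, at the progenitor and promyelocyte stages, and they store enzymes that later kill ingested microbes. Myeloperoxidase (Mpo) makes hypochlorous acid, while neutrophil elastase (Elane), proteinase 3 (Prtn3) and cathepsin G (Ctsg) are serine proteases that cathepsin C activates by trimming. These genes are classical targets of RUNX1, C/EBP, PU.1 and MYB in progenitors, and AML1-ETO, the fusion protein of a recurrent translocation in human acute myeloid leukemia, carries the DNA-binding part of RUNX1.

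The leukemia was driven by AML1-ETO 9a (AE9a), a truncated form of that fusion. Per the study's methods, fetal liver cells were transduced with an MSCV-IRES-GFP retrovirus carrying AE9a and then passed through irradiated mice. The recipients were C57BL/6 wild-type mice. The cells of both groups were Usp18+/f UBCER-Cre, that is, they had 1 floxed copy of Usp18, which encodes a negative regulator of interferon signaling, and a tamoxifen-inducible Cre under the ubiquitin C promoter, which is active in all tissues. Sick recipients were injected with oil (genotype label Usp18+/f) or with tamoxifen (genotype label Usp18+/D), and GFP+ Lin- c-Kit+ splenocytes were sorted 3 days after the first injection. Each group held 3 libraries, each from a separate mouse, and the labels give neither age nor sex. Both groups therefore shared the AE9a retrovirus, the Cre, the floxed copy, the irradiation and the sort, and tamoxifen exposure, Cre activation and removal of a Usp18 copy cannot be told apart within this design.

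The libraries, called oil 1, 3 and 4 and tamoxifen 1, 2 and 4 after the columns of the table, held between 17118964 and 20741399 estimated counts. Levels are given as CPM, counts relative to 1000000 counts of the scaled total of a library, and 3 counts, taken as the limit that a count of 0 allows, corresponded to between 0.145 and 0.177 CPM. These limits cover counting error only. Usp18 itself was not lower in the libraries labelled tamoxifen, at 162, 226 and 217.5 counts in oil 1, 3 and 4 against 275.5, 474.5 and 351.5 counts in tamoxifen 1, 2 and 4 (log2 fold change 0.998, SE 0.23, edgeR adjusted p = 0.0739). Where reads fall relative to the floxed part was not analysed here, so every direction given below rests on the labels alone. On the first principal component, which held 65.1% of the variance, tamoxifen 4 lay at -2.99, between the oil libraries at -31.1 to -23.4 and tamoxifen 1 and 2 at 37.3 and 47.5. Results are therefore also given without tamoxifen 4. The sort was checked against Kit, which encodes the sorted receptor and lay between 439.5 and 781.5 CPM in the 6 libraries. The B cell list held 5 genes and the T and NK cell list 7, and none of them passed the filter on low counts. Ptprc, which encodes the common leukocyte antigen CD45, had between 1 and 11.5 counts per library and is named after its values were seen.

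The primary granule program was close to absent in these cells. The 10 genes together received 559.5 of 111149299.5 counts, which is 5.03 per 1000000, and their sum was 4.45, 2.62 and 3.58 CPM in oil 1, 3 and 4 against 5.27, 10.3 and 4.75 CPM in tamoxifen 1, 2 and 4. Elane, Cebpe and Epx had 0 counts in every library, and Mpo, Csf3r and Prg2 never exceeded 3.5 counts. Only Prtn3, Ctsg, Ms4a3 and Csf1r had enough counts to be tested, which is 4 of 10 members. A count of 0 was common in the table as a whole, where 8027 rows (34%) had none in any library. Since RNA was measured in bulk, a few cells with much of a transcript and many cells with little of it cannot be told apart.

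**Figure D1:**
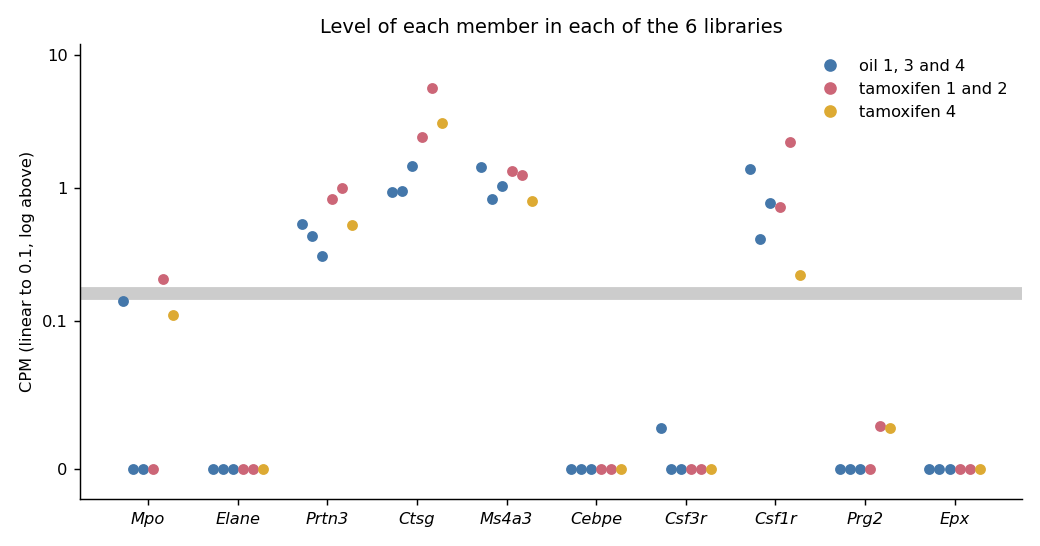
CPM of the 10 members (vertical axis, linear up to 0.1 and logarithmic above) in the 6 libraries, 1 point per library, with oil in blue, tamoxifen 1 and 2 in red and tamoxifen 4 in yellow. The grey band spans the CPM that 3 counts correspond to in the 6 libraries. Elane, Cebpe and Epx lie at 0 throughout, and only for Ctsg do the 3 tamoxifen points all lie above the 3 oil points.

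Mpo, the most abundant granule enzyme of normal promyelocytes, had 2.5, 0 and 0 counts in oil 1, 3 and 4 against 0, 3.5 and 2 counts in tamoxifen 1, 2 and 4. It was thus at 0 in 3 libraries, of both groups, and above 3 counts only in tamoxifen 2. Of the 31-base words in its annotated transcripts, 12.1% also occurred in transcripts of other genes, so that even these few counts are uncertain. Mpo lies at chr11:87793581-87804413 on the plus strand (GENCODE M21, mm10).

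Elane, the elastase gene at chr10:79886247-79888215, received no count in any library. With 0 counts in each of the 6 libraries, a level of up to 3 counts per library remains possible. None of its 31-base words occurred in another gene. The cathepsin C gene Ctsc, whose product activates the granule proteases, was read at 93.1 to 132 CPM, and the gene of serglycin, the proteoglycan on which granule proteases are packed, at 1218 to 1686 CPM (Srgn). Genes whose products mature and pack the granule proteases were hence read in libraries in which Elane had no count. Ctsc is named here after its values were seen.

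Prtn3, the proteinase 3 gene directly upstream of Elane at chr10:79874476-79883174, was detected in every library at a low level. It had 9.5, 9 and 6 counts in oil 1, 3 and 4 (0.535, 0.436 and 0.309 CPM) and 15, 17 and 9.5 counts in tamoxifen 1, 2 and 4 (0.823, 1.004 and 0.525 CPM). The groups overlapped, because tamoxifen 4 lay just under oil 1. Of the 31-base words of Prtn3, 7.48% occurred in Plppr3, which overlaps it in GENCODE M21, though not in RefSeq, and was read at 54.9 to 69.9 CPM. Without a stated strand setting, part of the Prtn3 counts could belong to Plppr3, and the Prtn3 level is uncertain for that reason.

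Ctsg, the cathepsin G gene at chr14:56099881-56102574 on the minus strand, was the highest of the protease members and the only member whose groups did not overlap. It had 16.5, 19.5 and 28.5 counts in oil 1, 3 and 4 (0.929, 0.945 and 1.47 CPM). The counts were 43.5, 95.5 and 55.5 in tamoxifen 1, 2 and 4 (2.39, 5.64 and 3.07 CPM). Every tamoxifen library thus lay above every oil library, with tamoxifen 2 the highest. None of the 31-base words of Ctsg occurred in another gene, the related mast cell proteases included.

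Ms4a3, a tetraspanning membrane protein gene whose expression marks granulocyte-monocyte progenitors, lies at chr19:11629496-11640851. Its counts were 25.5, 17 and 20 in oil 1, 3 and 4 against 24.5, 21 and 14.5 in tamoxifen 1, 2 and 4. The groups overlapped, with the lowest value in tamoxifen 4 and the highest in oil 1. In CPM the means were 1.10 ± 0.31 (SD, n = 3) in oil and 1.13 ± 0.29 (SD, n = 3) in tamoxifen.

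Cebpe encodes the C/EBP family member that drives the passage from promyelocyte to myelocyte and the making of secondary granules. It had 0 counts in all 6 libraries, and no 31-base word of it was shared with another gene. Csf3r, the receptor gene for granulocyte colony-stimulating factor, had 0.5 counts in oil 1 and 0 in the other 5 libraries. Csf1r, the receptor gene for macrophage colony-stimulating factor, had 24.5, 8.5 and 15 counts in oil 1, 3 and 4 against 13, 37.5 and 4 counts in tamoxifen 1, 2 and 4. Both the highest and the lowest Csf1r value therefore belonged to the tamoxifen group, and 14.9% of its 31-base words occurred in other genes. Prg2, the major basic protein gene of eosinophils, had 0.5 counts in tamoxifen 2 and in tamoxifen 4 and none elsewhere, while the eosinophil peroxidase gene Epx had none at all.

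Levels of different genes were compared per kilobase of median annotated transcript length. Ctsg came first at 1.44 ± 0.40 CPM per kb in oil and 4.78 ± 2.22 in tamoxifen (SD, n = 3 each), followed by Ms4a3 at 1.09 ± 0.31 and 1.12 ± 0.29. Prtn3 had 0.603 ± 0.160 CPM per kb in oil and 1.11 ± 0.34 in tamoxifen, and Csf1r had 0.608 ± 0.348 and 0.747 ± 0.739. In oil, neither Ctsg and Ms4a3 nor Prtn3 and Csf1r differed beyond their spread. Averaged over both groups, 15.7% of the tested genes with a length lay below Ctsg, 7.45% below Ms4a3, 5.85% below Prtn3 and 4.49% below Csf1r. For scale, counts assigned to Runx1 reached 224 CPM per kb in oil, which may include reads of the AE9a retrovirus.

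Oil and tamoxifen libraries were then compared to ask whether the members differed between the groups. In the test across 11614 genes, 2.01% of genes were called at an adjusted p under 0.05, and none of the 4 tested members was (edgeR quasi-likelihood test with Benjamini-Hochberg adjustment). At an unadjusted p under 0.05 stood 1 member, Ctsg, beside 20.6% of all tested genes. Higher groups without overlap were seen for 1 of the 4 tested members and for 13.3% of all tested genes. DESeq2 called 1 member and 8.13% of genes, and limma-voom called 0 members.

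Ctsg was 3.35-fold higher in the tamoxifen group, from 1.11 ± 0.31 to 3.70 ± 1.71 CPM (SD, n = 3 each). On the log2 scale the difference was 1.75 (SE 0.40, 95% interval 0.82 to 2.67), with an unadjusted p of 0.00245 and an adjusted p of 0.0746 in edgeR. It thus missed the threshold after adjustment, whereas DESeq2 gave an adjusted p of 0.00344 and limma-voom 0.118. Without tamoxifen 4 the log2 fold change was 1.86 and passed the threshold (edgeR adjusted p = 0.00778), at a setting in which 36.3% of all tested genes did. Leaving out each of the 6 libraries in turn gave log2 fold changes between 1.31 and 1.98 with edgeR adjusted p between 0.00778 and 0.297.

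Prtn3 had a log2 fold change of 0.86 (SE 0.45, 95% interval -0.18 to 1.89, edgeR adjusted p = 0.31), and 1.06 without tamoxifen 4 (adjusted p = 0.136). Ms4a3 had a log2 fold change of 0.01 (SE 0.39, 95% interval -0.87 to 0.90, edgeR adjusted p = 0.988). Csf1r had the widest interval, from -1.44 to 2.12 around 0.34 (SE 0.77, edgeR adjusted p = 0.813). The intervals of Prtn3, Ms4a3 and Csf1r span 0, and they leave room for changes of the size seen in Prtn3 in all of these genes. The median log2 fold change of the 4 tested members was 0.60, against 0.00 over all tested genes. These 4 had to hold more counts than the other 6 to be tested, and no test was made on their median.

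**Figure D2:**
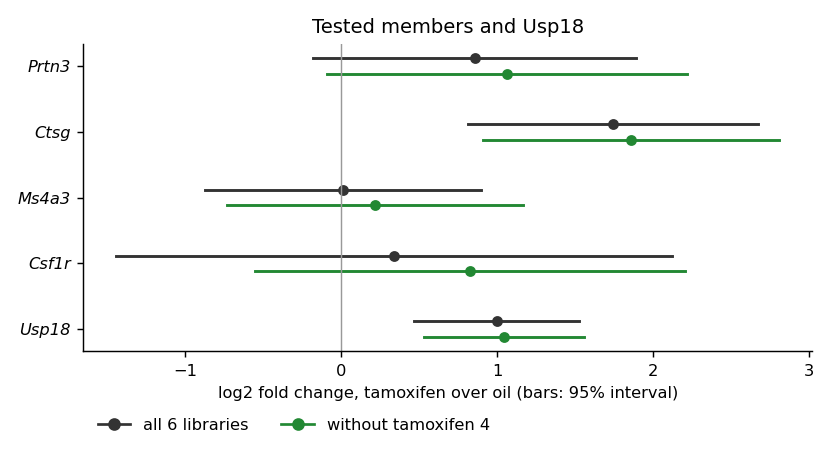
Log2 fold change (horizontal axis, tamoxifen over oil) of the 4 tested members and Usp18, with points for the edgeR estimate and bars for its 95% interval, using all 6 libraries (black) or leaving out tamoxifen 4 (green). The intervals of Ctsg and Usp18 lie above 0 in both fits, and those of Prtn3, Ms4a3 and Csf1r span 0 in both.

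The factors that normally switch these genes on were read at very different levels. Runx1 lay between 545 and 809 CPM (log2 fold change 0.35, edgeR adjusted p = 0.134) and Myb between 378 and 439 CPM (0.08, adjusted p = 0.599). Spi1, which encodes PU.1, lay between 68.2 and 97.5 CPM and overlapped between the groups. Cebpa, which encodes the C/EBP factor that normal granulocyte-monocyte progenitors require, had 0, 0 and 1 counts in oil 1, 3 and 4 against 0, 0 and 2 counts in tamoxifen 1, 2 and 4. Gfi1, which represses monocyte genes in granulocyte precursors, had 3 to 15.5 counts, and Irf8, a monocyte and dendritic cell factor, 1 to 6 counts per library. Spi1, Cebpa, Gfi1 and Irf8 are named here after their values were seen. Counts for Runx1, Myb and Spi1 were therefore present, while those of C/EBP alpha and epsilon were at or under the limit of 3 counts. The AE9a retrovirus carries part of RUNX1, and whether its reads were counted as Runx1 was not tested.

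Among the 20 listed myeloid transcription factors 18 were tested, 2 rose and none fell, beside 2.01% of all tested genes called in either direction. Cebpb, a C/EBP gene active in emergency granulopoiesis and in macrophages, rose from 7.39 to 9.43 CPM in oil to 14.3 to 15.9 CPM in tamoxifen (log2 fold change 0.78, edgeR adjusted p = 0.0493). Mitf, a factor of mast cells and melanocytes, rose from 58.7 to 62.0 CPM to 79.3 to 114 CPM (log2 fold change 0.71, edgeR adjusted p = 0.0434). Gata2 and Gata1, factors of progenitors, mast cells and red cell precursors, lay at 457 to 652 and at 304 to 375 CPM. Fold changes of the listed factors had a median of 0.25 on the log2 scale, beside 0.00 over all tested genes.

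Of 24 genes for azurophil granule and lysosomal proteins 19 were tested, and their median log2 fold change was 0.23, with 17 estimates above 0. Only Nkg7 passed the test, beside 2.01% of all tested genes. Nkg7 is a granule membrane protein gene of cytotoxic cells that is also read in early granulocyte precursors. It had 1.13, 1.502 and 2.47 CPM in oil 1, 3 and 4 against 20.0, 56.4 and 7.65 CPM in tamoxifen 1, 2 and 4 (log2 fold change 4.03, SE 0.73, edgeR adjusted p = 0.041). Tamoxifen 2 was again the highest and every tamoxifen library lay above every oil library. The lysosomal protease genes Ctsb and Ctsd lay at 413 to 544 and 433 to 543 CPM, and the mannosidase gene Man2b1 at 376 to 673 CPM, and none of these 3 passed. The azurophil protein gene Bpi and the lysozyme gene Lyz1 had 0 counts throughout. The other listed lysozyme gene, Lyz2, had 4, 0 and 4 counts in oil 1, 3 and 4 against 10, 24 and 4 counts in tamoxifen 1, 2 and 4. With all libraries Lyz2 did not pass the filter on low counts, and it is named after its values were seen.

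Of 10 genes for other peroxidases, for chaperones of myeloperoxidase and for the oxidase that feeds it with superoxide, 6 were tested. Only 1 rose, beside 2.01% of all tested genes called. Ncf4, a cytosolic subunit of the phagocyte oxidase, had 0.309, 0.145 and 0.103 CPM in oil 1, 3 and 4 (5.5, 3 and 2 counts). In tamoxifen 1, 2 and 4 it had 4.67, 7.94 and 0.967 CPM (log2 fold change 4.51, SE 0.85, edgeR adjusted p = 0.0434). Oil 3 and oil 4 were at or under the limit of 3 counts, so the size of this difference is uncertain. For Ncf4, limma-voom gave an adjusted p of 0.153. The chaperone genes Calr and Canx, which fold the Mpo precursor, were read at 616 to 1213 and 465 to 703 CPM. Rac2, a further part of the oxidase, lay at 832 to 1490 CPM. The lactoperoxidase gene Lpo was at 0 in all libraries.

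Later granule genes were also near absent. The lineage antibodies that the study lists for bone marrow include CD11b, the product of Itgam in this list, and Gr1. A lineage cocktail was also used for this sort, and its part in these low counts was not tested. None of the 16 secondary and tertiary granule genes passed the filter, 7 had 0 counts throughout, and the highest single value among them was 0.635 CPM. In sum they reached 0.535 to 0.978 CPM in oil and 0.302 to 1.27 CPM in tamoxifen. Of the 10 eosinophil lineage genes 5 were at 0, and the tested ones, Siglecf and Il5ra, lay at 6.57 to 19.3 and 0.129 to 1.13 CPM without passing the test. The highest sum of the secondary and tertiary granule genes, 1.27 CPM, was exceeded by Ctsg in tamoxifen 1, 2 and 4 (2.39, 5.64 and 3.07 CPM). Ctsg also exceeded it in oil 4 (1.47 CPM) but not in oil 1 and 3 (0.929 and 0.945 CPM).

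Receptors for the cytokines that share the progenitor stage with Csf3r and Csf1r were read far above them. Csf2rb, the common beta chain for GM-CSF, interleukin 3 and interleukin 5, lay at 652 to 827 CPM in oil and 861 to 2254 CPM in tamoxifen (log2 fold change 1.25, edgeR adjusted p = 0.0905). The second mouse beta chain, Csf2rb2, lay at 154 to 199 and 278 to 1401 CPM (2.37, adjusted p = 0.0557). Il1rl1, the interleukin 33 receptor of mast cells, lay at 1598 to 2610 CPM and Epor, the erythropoietin receptor, at 54.6 to 77.3 CPM. Of the 10 listed growth factor receptor genes 7 were tested and 0 were called by edgeR, beside 2.01% of all tested genes. An unadjusted edgeR p under 0.05 was reached by 4 of them and by 20.6% of all tested genes. DESeq2 called 3 of them and 8.13% of all tested genes. These were Csf2rb and Csf2rb2, higher in tamoxifen, and Epor, lower in tamoxifen (log2 fold change -0.37, DESeq2 adjusted p = 0.00708).

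Surface genes of progenitors had estimates of the same sign as Ctsg. All 8 tested genes of 11 had a log2 fold change above 0, with a median of 1.93. Of these, 2 passed the test, beside 2.01% of all tested genes. Cd34, the stem and progenitor antigen that granulocyte-monocyte progenitors carry, rose from 9.68, 8.41 and 11.7 CPM in oil 1, 3 and 4 to 113, 134 and 41.8 CPM in tamoxifen 1, 2 and 4 (log2 fold change 3.27, SE 0.41, edgeR adjusted p = 0.0232). Cd48, an antigen of lineage-restricted progenitors, rose from 4.90 to 8.13 CPM to 17.4 to 36.8 CPM (log2 fold change 2.00, edgeR adjusted p = 0.0313). Fcgr3, an Fc receptor gene by which these progenitors are sorted, lay at 14.9 to 16.3 CPM in oil and 25.2 to 159.6 CPM in tamoxifen (2.52, adjusted p = 0.0655). Flt3, the receptor gene of lymphoid-primed progenitors, was at 0 throughout.

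Among the 14 monocyte and macrophage genes 4 were tested and 1 rose, beside 2.01% of all tested genes called. This was Cx3cr1, the fractalkine receptor gene, with 0.969 to 1.01 CPM in oil and 4.75 to 8.98 CPM in tamoxifen (log2 fold change 2.86, edgeR adjusted p = 0.0135). In sum the list reached 23.5 to 27.1 CPM in oil and 29.5 to 54.2 CPM in tamoxifen, most of it from Ccr2 at 20.1 to 37.8 CPM. Csf1r, the defining receptor of that lineage, did not pass the same test.

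Mast cells and basophils carry granule proteases of their own. All 15 listed genes were tested, 14 had a log2 fold change above 0, and the median was 1.09. Of these genes 3 rose and none fell, beside 2.01% of all tested genes called. The groups of 8 genes overlapped, while 7 were higher without overlap, beside 13.3% of all tested genes. The list summed to between 4332 and 4668 CPM in oil and between 5190 and 9767 CPM in tamoxifen, so that the groups did not overlap. Fcer1a, the alpha chain gene of the high-affinity IgE receptor, rose from 68.2 to 98.0 CPM to 188 to 553 CPM (log2 fold change 2.12, edgeR adjusted p = 0.0381). The tryptase gene Tpsb2 rose from 0.113 to 0.315 CPM to 2.00 to 8.92 CPM (4.16, adjusted p = 0.0402). The granzyme B gene Gzmb, also a gene of cytotoxic lymphocytes, had 0, 1 and 1 counts in oil 1, 3 and 4 against 14.5, 98 and 24 counts in tamoxifen 1, 2 and 4 (edgeR adjusted p = 0.0454). The mast cell chymase gene Cma1 lay at 241 to 318 CPM in oil and 557 to 2170 CPM in tamoxifen (2.16, adjusted p = 0.0551). The part of these cells in the Ctsg difference was not tested.

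Ctsg had the same order among the tamoxifen libraries as Gzmb, with tamoxifen 2 first, tamoxifen 4 next and tamoxifen 1 last. Relative to the oil mean, Ctsg was 2.14-fold, 5.06-fold and 2.75-fold in tamoxifen 1, 2 and 4. For Cma1, these ratios were 3.26, 8.08 and 2.07, so tamoxifen 1 lay above tamoxifen 4. Usp18 also had the Ctsg order, with ratios of 1.45, 2.69 and 1.86. With 3 libraries these orders are descriptions only.

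Of the remaining lists, all 8 erythroid genes were tested. Car1, a carbonic anhydrase gene of early red cells, lay at 1661 to 2027 CPM, and the erythroid list summed to 5045 to 9369 CPM over the 6 libraries. Of the 5 megakaryocyte genes 2 were tested and Itga2b, an integrin gene also read in progenitors and mast cells, rose from 4.77 to 5.71 CPM to 11.7 to 51.0 CPM (log2 fold change 2.51, edgeR adjusted p = 0.0435). Over all lists outside the members, 86 of 152 genes were tested, 11 rose and 1 fell, where 2.01% of all tested genes were called. By edgeR, 0 list genes were called without oil 1, oil 3, oil 4 or tamoxifen 1, and 1 without tamoxifen 2, in fits where 1373 to 1659 of all tested genes had an unadjusted p under 0.05. Without tamoxifen 4, 62 were called, at a setting that called 36.3% of all tested genes. With all libraries, DESeq2 called 26, beside 8.13% of all tested genes, and limma-voom called 1.

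**Figure D3:**
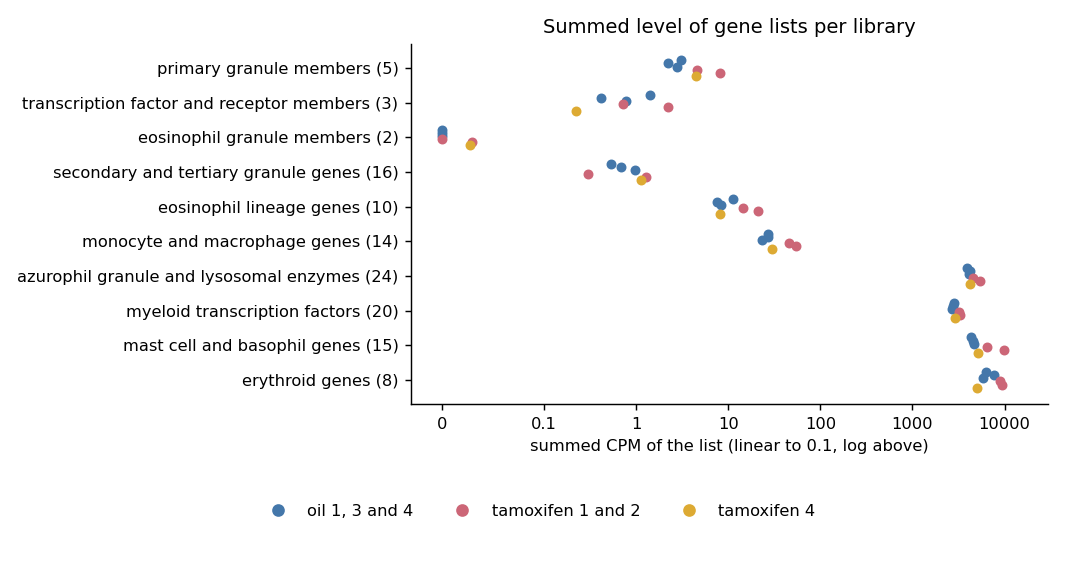
Summed CPM of 10 gene lists (horizontal axis, linear up to 0.1 and logarithmic above) in the 6 libraries, 1 point per library, with the number of genes of each list in brackets. The primary granule members sum to between 2.21 and 8.09 CPM, while the mast cell and basophil list sums to between 4332 and 9767 CPM.

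The genomic surroundings of the members were read as well, taking RefSeq protein-coding genes within 100 kb, a window chosen after values had been seen. Ctsg lies within a cluster of protease genes, between mast cell protease genes and granzyme genes. On the side that holds Mcpt8, Mcpt4, Mcpt2 and Mcpt1, the genes were read at 0.460 to 4.87, 15.9 to 53.3, 65.7 to 193 and 148 to 244 CPM. On the other side Gzme, Gzmd, Gzmg and Gzmn had 0 counts in all libraries. The nearest of the former, Mcpt8, a basophil protease gene 14386 bases away, had 16, 9.5 and 10 counts in oil 1, 3 and 4 against 19, 82.5 and 36.5 counts in tamoxifen 1, 2 and 4 (log2 fold change 2.05, SE 0.61, edgeR adjusted p = 0.131). The Mcpt8 counts had the order of Ctsg, with tamoxifen 2 first and tamoxifen 1 last. Every tamoxifen library lay above every oil library for Mcpt8, as for 13.3% of all tested genes. Mcpt1 had the same order in tamoxifen, while Mcpt2 and Mcpt4 had tamoxifen 4 last. The groups of Mcpt1, Mcpt2 and Mcpt4 overlapped. None of the 4 tested neighbours of Ctsg was called by edgeR, beside 2.01% of all tested genes.

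Ms4a3 lay 5709 bases from Ms4a2, the beta chain gene of the IgE receptor, which was read at 830 to 931 CPM (log2 fold change -0.04, edgeR adjusted p = 0.807). The groups overlapped for both genes, with means of 1.10 and 1.13 CPM for Ms4a3. Of the 31-base words of Ms4a3, 1.22% occurred in other genes.

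Elane and Prtn3 sit among widely expressed genes. Within 100 kb of Elane 12 of 14 neighbours were tested and 0 were called, beside 2.01% of all tested genes. Ptbp1, a splicing factor gene 21877 bases away, was read at 579 to 799.7 CPM, and Med16, a Mediator subunit gene 6490 bases away, at 80.3 to 94.9 CPM. The complement factor D gene Cfd, 2637 bases downstream of Elane, had 1 count in tamoxifen 1 and 0 elsewhere. Prss57, the gene of another azurophil serine protease, was read at 5.72 to 8.21 CPM (log2 fold change 0.24, edgeR adjusted p = 0.459).

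Mpo, Lpo and Epx form a peroxidase gene cluster on chromosome 11, and both Lpo, 2016 bases from Mpo, and Epx, 59585 bases from it, had 0 counts in every library. Of the 8 neighbours of Mpo 4 were tested and 4 were at 0. Cebpe, with 0 counts, lies 10041 bases from Slc7a8, an amino acid transporter gene. Slc7a8 rose from 40.7, 56.0 and 55.3 CPM in oil 1, 3 and 4 to 669, 784 and 197 CPM in tamoxifen 1, 2 and 4 (log2 fold change 3.44, SE 0.47, edgeR adjusted p = 0.028). Slc7a8 was the only one called of the 5 tested neighbours of Cebpe. No tested neighbour of another member was called, beside 2.01% of all tested genes.

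**Figure D4:**
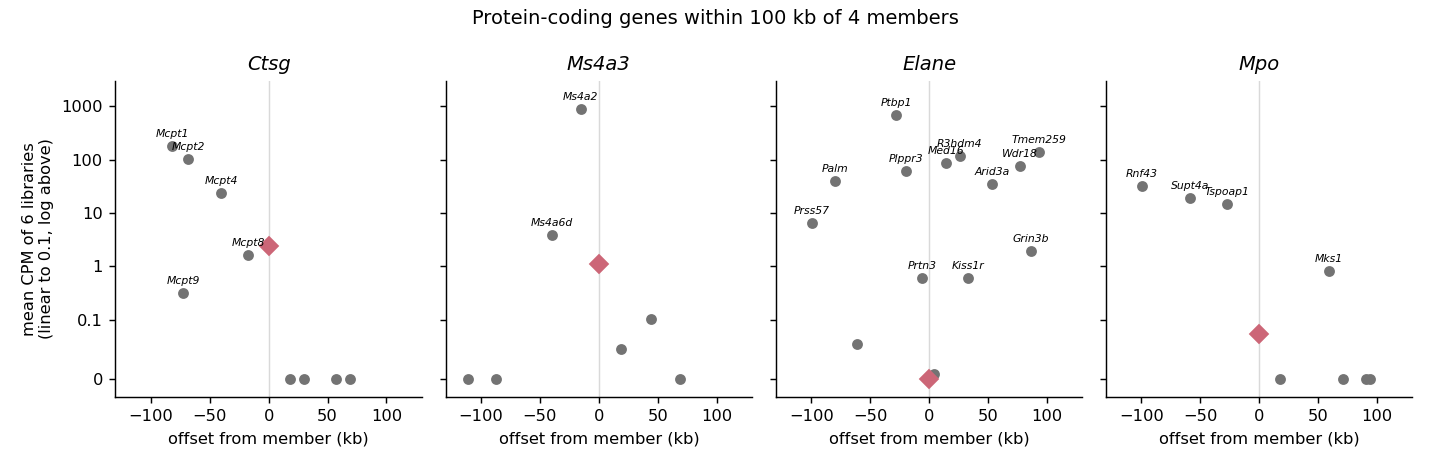
Mean CPM over the 6 libraries (vertical axis, linear up to 0.1 and logarithmic above) of the protein-coding genes within 100 kb of Ctsg, Ms4a3, Elane and Mpo, against the offset of their midpoints from that of the member in kb. Red diamonds mark the members and grey points their neighbours, labelled where they exceed 0.3 CPM. Ms4a2 stands at 830 to 931 CPM in the single libraries, beside Ms4a3 at 0.801 to 1.43 CPM, and the genes to the right of Ctsg lie at 0.

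The promoters of the protease and peroxidase members are shown because the factors above bind there in normal progenitors. RefSeq promoters (GRCm38.p6) were found for 7 of the 10 members, and the 250 bases before the start were searched on both strands for the core letters of PU.1 (AGGAAGT), of RUNX factors (TGTGGT), of MYB (CAACTG), of C/EBP factors (TTNNGNAA) and of GATA factors (AGATAA). Ctsg, whose counts differed most between the groups, is given in full at chr14:56102575-56102824 on the minus strand. For the others the 30 bases around the PU.1 match are given, at chr10:79879562-79879591 (Prtn3), chr10:79886217-79886246 (Elane) and chr11:87793550-87793579 (Mpo), all on the plus strand. The Prtn3 stretch lies before the RefSeq start, which is inside the longer GENCODE span of Prtn3 given above. Capitals mark matches to AGGAAGT and, in Ctsg, to the reverse complement of TGTGGT.
Ctsg: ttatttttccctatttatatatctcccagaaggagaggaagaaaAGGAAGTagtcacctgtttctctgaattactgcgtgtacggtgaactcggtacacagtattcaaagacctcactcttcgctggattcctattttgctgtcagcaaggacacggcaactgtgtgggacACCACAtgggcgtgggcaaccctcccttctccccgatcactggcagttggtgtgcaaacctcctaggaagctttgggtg
Prtn3: aaactggaaggAGGAAGTgggacccacagc
Elane: gtgtcccagggAGGAAGTagggctgtggcc
Mpo: tggagagagagAGGAAGTtgcctttgtccc

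AGGAAGT occurred in 4 of the 7 promoters and in 7.69% of 32851 promoters of the same length. Its first base lay at -206 in Ctsg, -94 in Prtn3, -84 in Elane and -223 in Mpo relative to the RefSeq start. The RUNX letters occurred in Ctsg alone, at -79 on the opposite strand, and in 14% of all promoters. CAACTG occurred at -93 and -36 in Ctsg and in 11.1% of promoters. The C/EBP letters were found in Ms4a3 alone, at -59, and in 36.8% of promoters, and the GATA letters in no member and in 9.99% of promoters. Of the members, Ctsg carried matches for the most factors, while Elane and Mpo, with the PU.1 letters in common with it, had 0 to 3.5 counts. A match of letters is a description and not evidence of binding.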

How the data were processed

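RNA was extracted with Trizol from sorted splenocytes of 6 mice, and libraries were sequenced as paired ends on an Illumina NovaSeq. The labels name a Nextera DNA Flex kit, whereas the study names a sequencing provider. The values deposited by the authors are unscaled estimated counts for each symbol, in steps of 0.5. The submitters' processing notes name STAR, DESeq2 and mm10, and the counting program, strand and annotation are not given in the sources used here. The numbers of oil 3 and tamoxifen 2 differ from the sample titles, so these columns were used for their group only. Of the rows, 26 had symbols turned into dates and were not named.

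Counts were rounded and tested in R 4.3.3 with edgeR 4.0.16 (filterByExpr, TMM, quasi-likelihood test, Benjamini-Hochberg over all tested genes, threshold 0.05). The procedure was tested on simulated data. CPM divided unrounded counts by the total of tested genes after TMM scaling. DESeq2 1.42.0 and limma 3.58.1 (voom), upper-quartile and DESeq2 scaling, other filters, unrounded counts, a replicate block and leaving out each library were tried. Lengths came from GENCODE M21 and promoters from RefSeq. Protein sequences, the ATAC-seq and the other batch were not analysed here, and some genes of the lists are not reported here. Members and lists were chosen with earlier results of these data known. Named genes are the members, Usp18, and of each list at most 4 tested genes with the highest mean CPM plus every called gene and markers at 0, and others are said to be chosen after their values were seen. Libraries are separate mice according to the study.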

Additional observations from a re-analysis of the deposited data

How the results depend on the processing

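Of the 4 tested members, Ctsg and Prtn3 kept their direction under every alternative that gave them a value. Ctsg passed the threshold under DESeq2, without a filter on low counts (log2 fold change 1.74, edgeR adjusted p = 0.0457) and without tamoxifen 4, which made 1 member called in each, and under no other setting. With the replicate number as a block, its log2 fold change was 1.25 (adjusted p = 0.39). Ms4a3 turned to -0.27 under the block and ranged from -0.17 to 0.26 when each library was left out. Csf1r turned to -0.033 under limma-voom and -1.25 under the block, and ranged from -0.81 to 0.86. Usp18 passed under DESeq2 (log2 fold change 0.9997, adjusted p = 0.00199), without a filter (0.989, edgeR adjusted p = 0.0395) and without tamoxifen 4 (1.04, edgeR adjusted p = 0.00654), and ranged from 0.73 to 1.18 with each library left out. The cause of these changes was not tested.

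Genes called higher numbered 203, and 713 under DESeq2, 48 under limma-voom, 372 without a filter, 120 at a mean of at least 50 counts and 8 to 2278 with each library left out. Genes called lower numbered 31, and 231, 6, 61, 17, 18 with the replicate block and 0 to 2024. List genes called numbered 12, and 26, 1, 19, 5 and 0 to 62, and members called ranged from 0 to 1. The highest of each range came without tamoxifen 4, and in the fits without another library at most 16 genes were called higher and 0 lower, with 1373 to 1659 genes at an unadjusted p under 0.05.

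The block could use 4 libraries with 1 residual degree of freedom. Between groups, the deviations of libraries 1 correlated at -0.127 and those of libraries 4 at 0.0616, and these libraries share only a number. A mean of at least 50 counts left no member to test, and unrounded counts left out Prtn3. Per longest transcript, Ms4a3 moved to 0.740 CPM per kb. A count of 0 allows up to 3 counts per library, and with 3 mice per group the intervals of Prtn3, Ms4a3 and Csf1r stayed wide.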
